A study of Homo sapiens with 6 samples.

Results

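The 6 genes described here encode 4 secreted ligands, TGFB2, PDGFA, PDGFB and VEGFA, and 2 receptors, TGFBR2 and TGFBR3, of the TGF-beta, PDGF and VEGF families. They were taken by symbol from a table of 405 genes that the authors had selected as different between Panc-1 cells given Gli3T and Panc-1 cells given an empty vector, so the 6 were chosen by the measured difference between these groups, which is given as a description, without a test. Panc-1 cells are a human line derived from a ductal carcinoma of the pancreas. One group of cells had been transfected with pCIG-Gli3T, which expresses Gli3T, a truncated Gli3 that represses the genes Gli factors activate at the end of the hedgehog pathway, and the other with the empty pCIG vector. The constructs also carried GFP, and each array reports cells that took up a vector, since sorting for GFP took place 24 h after transfection. RNA of 3 samples per group was measured on 6 Affymetrix arrays. Whether separate cultures gave the 3 samples is not stated in the labels, and the spread between arrays may be technical.

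TGF-beta ligands are secreted in a latent form and, once active, bring together a type II receptor, encoded by TGFBR2, and a type I receptor, which phosphorylates SMAD transcription factors. Betaglycan, encoded by TGFBR3, is a co-receptor that presents the ligand to the type II receptor and is needed most for TGF-beta 2, which binds that receptor poorly on its own. PDGF A and B chains form dimers that act on receptor tyrosine kinases, typically on stromal cells around an epithelial tumour, and VEGF-A acts on endothelial receptors and is a textbook target of hypoxia signalling.

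The start regions of the TGF-beta genes are shown because TGFB2 differed in the opposite direction to both of its receptor genes. RefSeq promoter windows of the GRCh38.p14 build were found for 4 of the 6 genes (TGFB2, TGFBR2, TGFBR3 and PDGFA), in 8 windows of 300 bases. The 250 bases before the start are printed 5′ to 3′ on the gene's own strand, with capitals marking ACGTG, the core of the hypoxia element, on either strand. They lie at chr1:218345086-218345335 (plus strand) for TGFB2, at chr3:30606106-30606355 (plus strand) for the first of 2 TGFBR2 windows, and at chr1:91886152-91886401 (minus strand) for TGFBR3.
TGFB2: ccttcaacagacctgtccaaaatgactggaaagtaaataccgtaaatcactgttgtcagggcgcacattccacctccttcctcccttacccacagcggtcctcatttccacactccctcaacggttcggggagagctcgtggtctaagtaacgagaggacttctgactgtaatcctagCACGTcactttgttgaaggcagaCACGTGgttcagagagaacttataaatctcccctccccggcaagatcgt
TGFBR2: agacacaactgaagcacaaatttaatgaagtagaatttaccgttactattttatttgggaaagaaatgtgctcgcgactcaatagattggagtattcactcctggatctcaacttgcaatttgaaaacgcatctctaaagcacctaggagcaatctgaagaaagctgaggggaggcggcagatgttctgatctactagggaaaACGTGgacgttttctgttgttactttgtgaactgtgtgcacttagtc
TGFBR3: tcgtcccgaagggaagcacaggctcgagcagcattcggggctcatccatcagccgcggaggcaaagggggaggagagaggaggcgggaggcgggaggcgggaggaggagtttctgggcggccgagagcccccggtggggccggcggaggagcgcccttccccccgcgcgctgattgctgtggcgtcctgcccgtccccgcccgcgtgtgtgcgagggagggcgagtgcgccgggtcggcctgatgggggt

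The TGFB2 window held ACGTG in 2 places, the second a palindrome that matches on both strands, with the first letters of the matches at 72, 49 and 48 bases before the start. The first TGFBR2 window held 1 match, 47 bases before the start, and the windows of TGFBR3 and PDGFA and the second window of TGFBR2 held none. ACGTG was found in 21.4% of all 35116 windows. The Gli site GACCACCCA was found in 0.236% of all windows and in none of the 8 windows of these genes, while 1 of the 5 windows of PTCH1, the hedgehog receptor gene, held it. The SMAD palindrome GTCTAGAC was found in 0.202% of all windows and in none of the 8. These matches describe the letters of the windows only.

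Expression is given as the authors' log2 values, on which a difference of 1 is a doubling. The matrix of all 6 arrays held 32321 probe sets, whose array medians ran from 8.38 to 8.53. Arrays correlated at 0.98 to 0.996 with one another over probe sets. Empty vector replicate 1 correlated least with its own group (mean 0.983), and with it the median SD of the empty-vector arrays was 0.18 log2, against 0.092 without it and 0.077 in the arrays labelled Gli3T. Correlation did not set the empty-vector arrays apart as a group. Replicate 2 correlated at 0.9915, 0.9903 and 0.9917 with Gli3T replicates 1, 2 and 3, against 0.9853 and 0.9907 with empty vector replicates 1 and 3. limma called 454 probe sets higher (1.4%) and 344 lower (1.06%) under the Gli3T label at an adjusted p of 0.05. That count and its balance changed when 1 array was left out. limma called 1051 higher and 1127 lower without empty vector replicate 1, 225 and 323 without replicate 2 and 30 and 39 without replicate 3, so that lower calls outnumbered higher ones in each. It called 0 without Gli3T replicate 1 (3471 at an unadjusted p under 0.05), 1 without Gli3T replicate 2 and 0 without Gli3T replicate 3 (3469 at an unadjusted p under 0.05).

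GLI3, the gene whose repressor form was transfected, was lower under the Gli3T label (probe set 8139212). It read 8.0, 7.92 and 7.71 in the arrays labelled Gli3T, against 9.20, 9.12 and 9.31 in the empty-vector arrays, a log2 difference of -1.34 ± 0.10 (SE; limma, adjusted p = 0.00884). No rise of GLI3 was seen under the Gli3T label, and whether the probe set can read the construct was not tested, so every direction given here rests on the labels. The call on GLI3 was lost in limma without any 1 of the Gli3T arrays (adjusted p = 0.0695, 0.0868 and 0.0983 without replicates 1, 2 and 3), with the same direction.

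Under the Gli3T label 5 of the 6 genes were higher, and TGFB2 was lower. In none of them did the arrays of the groups overlap, as for 11.4% of all probe sets in the higher direction and 13% in the lower. The sizes were modest and close to one another, from 1.53-fold to 1.84-fold. All 6 were called by limma, as were 2.47% of all probe sets, and all 6 passed 1.5-fold; having been selected on this difference, they give no reading of that count. The calls changed when 1 array was left out. limma called 0 of the 6 without any 1 of the Gli3T arrays, 2 without empty vector replicate 2 (TGFB2 and TGFBR3) and 1 without empty vector replicate 3 (TGFBR3). It called all 6 without empty vector replicate 1. Without any 1 of the Gli3T arrays all 6 differences still reached 1.5-fold. Whether the smaller number of arrays accounts for the lost calls was not tested. At least 1.5-fold, 1.75% of all probe sets were higher and 3.21% lower. The median difference of the 6 was 0.71, against -0.05 over all probe sets. No gene of the authors' selection found in the matrix had an absolute difference below 0.58, so this contrast was set by the selection. The median difference of the higher genes in that selection was 0.74.

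**Figure D1:**
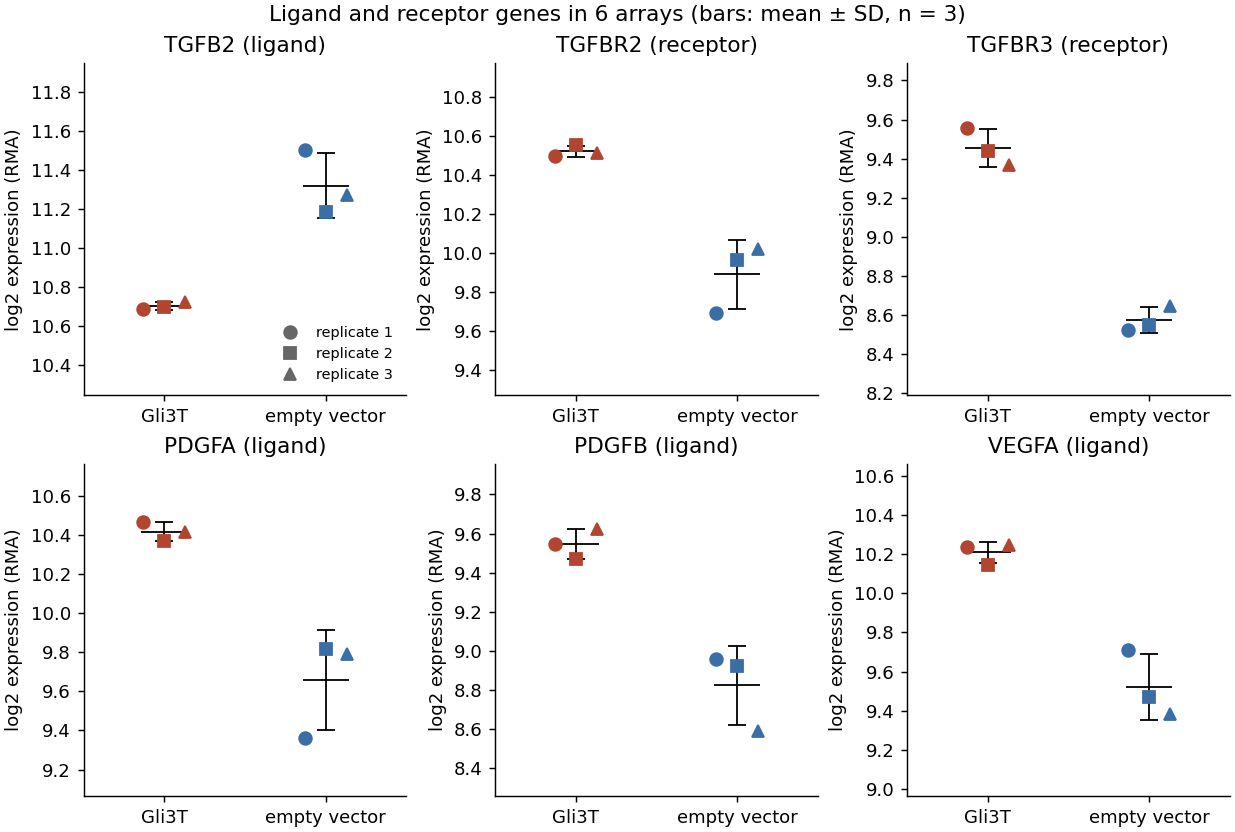
Log2 expression of each gene in the 3 arrays labelled Gli3T (left, red) and the 3 empty-vector arrays (right, blue), with the marker shape giving the replicate number and bars the mean ± SD. The panels span the same range of log2 values; TGFB2 is lower and the other 5 genes are higher under the Gli3T label, and no panel has overlapping groups.

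TGFB2, the ligand of the TGF-beta family among these genes, was the only lower one (probe set 7909789). It read 10.69, 10.70 and 10.73 in the arrays labelled Gli3T, against 11.50, 11.18 and 11.27 in the empty-vector arrays. The arrays labelled Gli3T agreed within 0.035 log2, while the empty-vector arrays spanned 0.32, with replicate 1 highest. The means were 10.70 ± 0.019 in the arrays labelled Gli3T and 11.32 ± 0.17 in the empty-vector arrays (SD, n = 3 each), a log2 difference of -0.61 ± 0.096 (SE), or 1.53-fold lower.

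TGFBR2, the type II receptor that starts the kinase cascade, was higher (probe set 8078350). It read 10.50, 10.55 and 10.51 in the arrays labelled Gli3T, against 9.69, 9.97 and 10.02 in the empty-vector arrays, where replicate 1 stood lowest. The means were 10.52 ± 0.028 in the arrays labelled Gli3T and 9.89 ± 0.18 in the empty-vector arrays (SD, n = 3 each), a log2 difference of 0.63 ± 0.10 (SE), or 1.55-fold.

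TGFBR3, which encodes betaglycan, had the largest difference of the 6 (probe set 7917649). It read 9.56, 9.44 and 9.37 in the arrays labelled Gli3T, against 8.52, 8.55 and 8.65 in the empty-vector arrays. It was the only one of the 6 genes whose arrays labelled Gli3T spread more than its empty-vector arrays, over 0.19 log2 in the arrays labelled Gli3T and 0.13 in the empty-vector arrays. The means were 9.45 ± 0.095 in the arrays labelled Gli3T and 8.57 ± 0.067 in the empty-vector arrays (SD, n = 3 each), a log2 difference of 0.88 ± 0.067 (SE), or 1.84-fold. The nearest arrays of the groups were still 0.72 log2 apart.

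The difference of TGFB2 thus ran opposite to those of TGFBR2 and TGFBR3. Other ligand and receptor genes of the TGF-beta family were not analysed here. Within an array, the TGFB2 value exceeded the TGFBR2 value by 0.19, 0.14 and 0.21 log2 in the arrays labelled Gli3T, against 1.81, 1.22 and 1.25 in the empty-vector arrays. Values of different probe sets are not on 1 scale, so only the change of this gap can be read, and it was -1.24 ± 0.19 log2 (SE). The gap between TGFB2 and TGFBR3 changed by -1.50 ± 0.13 (SE), and that between the 2 receptor genes by -0.25 ± 0.099 (SE). These changes combine differences that chose the genes and were not tested.

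Both PDGF ligand genes were higher. PDGFA (probe set 8137670) read 10.47, 10.37 and 10.42 in the arrays labelled Gli3T, against 9.36, 9.82 and 9.79 in the empty-vector arrays, where replicate 1 lay 0.44 below the mean of the other two. Its means were 10.42 ± 0.050 in the arrays labelled Gli3T and 9.66 ± 0.26 in the empty-vector arrays (SD, n = 3 each), a log2 difference of 0.76 ± 0.15 (SE), or 1.69-fold. The SE of PDGFA was the largest of the 6 genes.

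PDGFB (probe set 8076195) read 9.55, 9.47 and 9.62 in the arrays labelled Gli3T, against 8.96, 8.92 and 8.59 in the empty-vector arrays. Here replicate 3 was the low empty-vector array, 0.35 below the mean of the other two. The means were 9.55 ± 0.077 in the arrays labelled Gli3T and 8.82 ± 0.20 in the empty-vector arrays (SD, n = 3 each), a log2 difference of 0.72 ± 0.12 (SE), or 1.65-fold. The gap between PDGFA and PDGFB changed by 0.04 ± 0.24 log2 (SE) between the groups, less than its standard error.

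VEGFA, the angiogenic ligand gene, was higher as well (probe set 8119898). It read 10.24, 10.15 and 10.25 in the arrays labelled Gli3T, against 9.71, 9.47 and 9.38 in the empty-vector arrays, where replicate 1 was highest and thus nearest to the arrays labelled Gli3T. The means were 10.21 ± 0.055 in the arrays labelled Gli3T and 9.52 ± 0.17 in the empty-vector arrays (SD, n = 3 each), a log2 difference of 0.69 ± 0.10 (SE), or 1.61-fold. The nearest arrays of the groups were 0.44 log2 apart, the smallest such gap of the 6.

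Empty vector replicate 1 touched the genes in different ways, and with it their order by size. Without it, TGFB2 differed by -0.52 (1.44-fold) and TGFBR2 by 0.53 (1.44-fold), so that 4 of the 6 genes were left at 1.5-fold or more. PDGFA differed by 0.61 without it, while PDGFB and VEGFA differed by 0.79 and 0.78, above PDGFA. TGFBR3 stayed largest in that setting, at 0.86. Leaving out any 1 of the other 5 arrays kept all 6 genes at 1.5-fold or more. PDGFB was lowest without empty vector replicate 3, at 0.61.

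**Figure D2:**
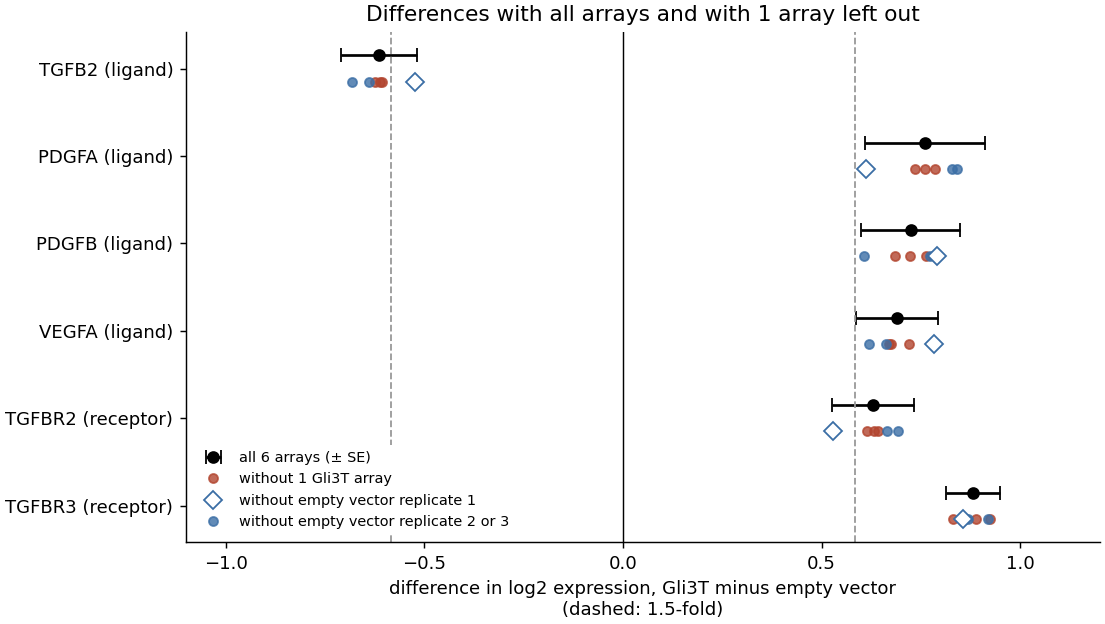
Difference in log2 expression, arrays labelled Gli3T minus empty-vector arrays, for each ligand and receptor gene, with all 6 arrays (black, ± SE) and with each array left out in turn; dashed lines mark 1.5-fold. Without empty vector replicate 1 (open diamonds) TGFB2 and TGFBR2 fall inside the lines, PDGFA moves inward and PDGFB and VEGFA move outward.

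The genes differed in their pattern over the arrays. Likeness was measured as the root mean square distance between values centred on each gene's mean over the 6 arrays, so a smaller distance means a closer pattern. PDGFB and VEGFA were 0.081 log2 apart and PDGFA and TGFBR2 0.095, while PDGFA and PDGFB, both PDGF chains, were 0.24 apart. With its sign turned, TGFB2 lay 0.047 from TGFBR2, the smallest distance among the 6 genes, and 0.098 from PDGFA. Without the turn TGFB2 and TGFBR2 were 0.65 apart. The distance includes the group difference that chose the genes, so a small one in part restates differences of similar size. TGFBR3 was nearest to PDGFA, at 0.15. PDGFA, TGFBR2 and TGFBR3 were lowest in empty vector replicate 1 and TGFB2 highest there, whereas PDGFB and VEGFA were highest in that array and lowest in replicate 3 among the empty-vector arrays. How far the separate standing of replicate 1 accounts for these patterns was not tested.

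**Figure D3:**
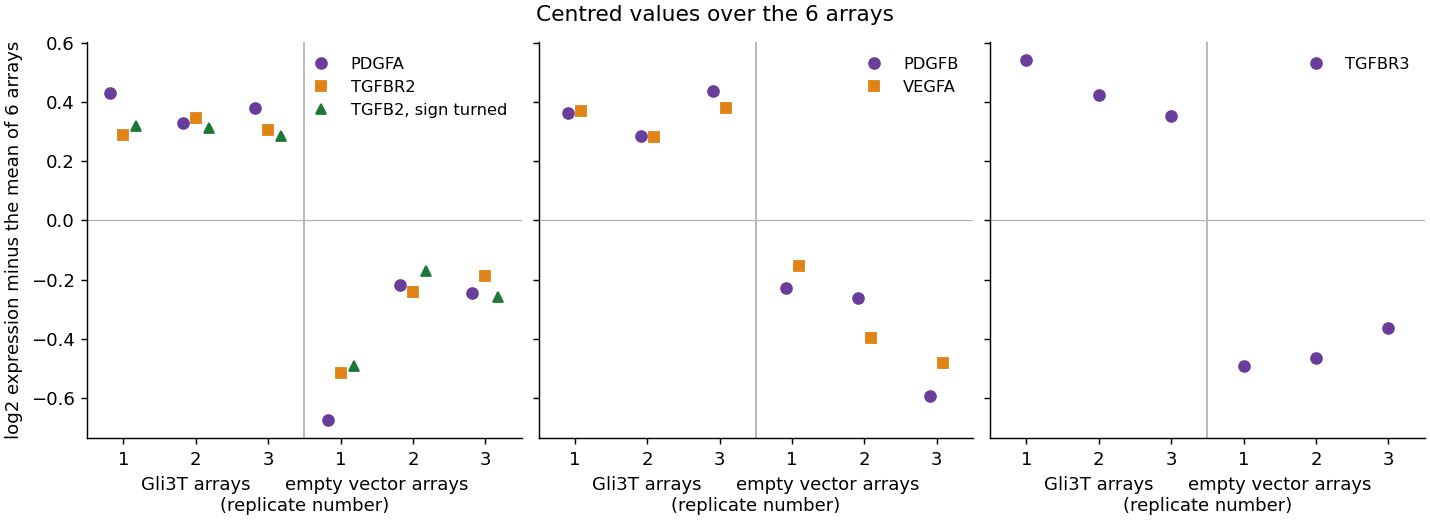
Log2 expression of each gene minus its mean over the 6 arrays, with the arrays labelled Gli3T left of the grey line and the empty-vector arrays right of it; TGFB2 is drawn with its sign turned. PDGFA, TGFBR2, TGFBR3 and the turned TGFB2 are lowest in empty vector replicate 1, TGFBR3 by the least, and PDGFB and VEGFA are lowest in empty vector replicate 3.

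Among the 392 other genes with a symbol, the nearest patterns over the 6 arrays were found by the same distance. They were SPTLC2, a subunit of the enzyme that starts sphingolipid synthesis, and MSH6, a DNA mismatch repair gene, for PDGFA, at 0.018 and 0.022 log2. SSFA2 and MADD were nearest to TGFBR2 at 0.027 and 0.037. TUFT1 and SLC3A2, the heavy chain of amino acid transporters, were nearest to TGFB2 at 0.035 and 0.039. SIRT1, a deacetylase gene, and RAI1 were nearest to VEGFA at 0.044 and 0.046. PHF12 and RFX7 were nearest to TGFBR3 at 0.049 and 0.056, and the homeobox gene HOXC13 and RIN2 to PDGFB at 0.053 and 0.059. All these genes came from the table selected for the same difference, and the distance includes that difference, so a shared direction is set by the measure.

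Within the authors' selection the 6 genes were not among the largest differences. Of the 262 higher genes found in the matrix, TGFBR3 ranked 61 by size, PDGFA 115, PDGFB 142, VEGFA 165 and TGFBR2 219. TGFB2 ranked 128 of 136 lower genes. Over all probe sets, 1.61% had a larger absolute difference than TGFBR3 and 4.45% a larger one than TGFB2. The smallest absolute difference in the table was 0.58 log2 (1.49-fold), just below that of TGFB2. A further 149 probe sets passed 1.5-fold and an adjusted p of 0.05 in limma but were not in the table and have no symbol here.

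**Figure D4:**
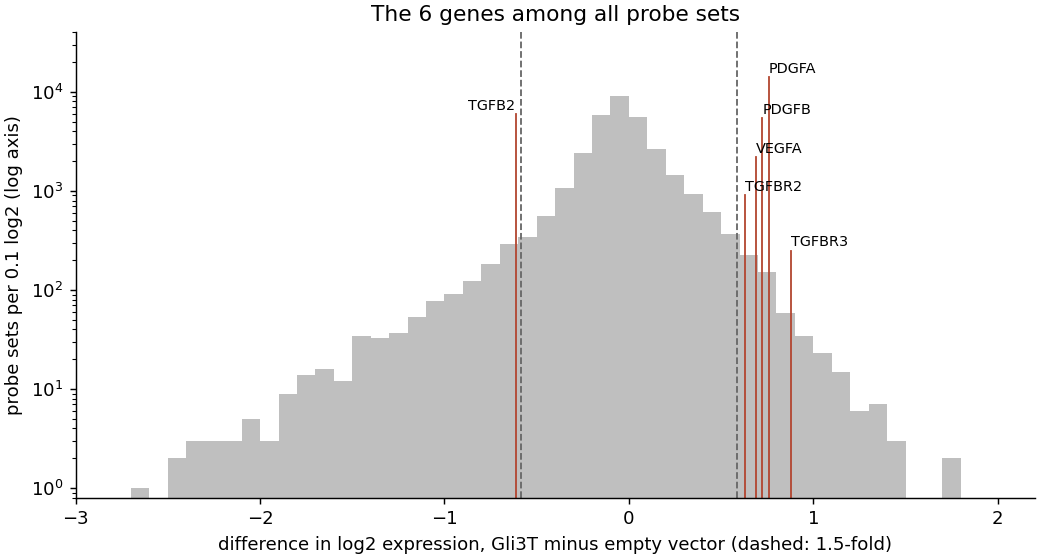
Number of probe sets per 0.1 log2 of difference, arrays labelled Gli3T minus empty-vector arrays, over all 32321 probe sets on a log axis, with red lines at the 6 genes and dashed lines at 1.5-fold. The 5 higher genes lie between 0.63 and 0.88 and TGFB2 lies at -0.61.

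Few other genes of these pathways could be named, because symbols came from the authors' selected table. Of 117 genes in 9 lists of ligands, receptors, SMAD proteins, response genes, hypoxia genes, receptor tyrosine kinase outputs and hedgehog genes, 5 besides the 6 described were analysed, and limma called 1 higher and 3 lower. No other gene of the TGF-beta ligand, TGF-beta receptor, SMAD, TGF-beta response, PDGF or VEGF lists was analysed here, the PDGF and VEGF receptor genes included. The immediate early genes EGR1 and FOS, which growth factor receptors induce, were lower, by -0.88 ± 0.055 log2 (SE; limma, adjusted p = 0.0132) and -0.77 ± 0.11 (SE; adjusted p = 0.0263). SLC2A1, a glucose transporter gene and hypoxia target like VEGFA, averaged 12.03 in the arrays labelled Gli3T and 11.27 in the empty-vector arrays, and the difference of 0.76 ± 0.16 log2 (SE) did not pass (limma, adjusted p = 0.0501). PTCH1, which had a Gli site in a promoter window, was higher by 0.91 ± 0.12 (SE; limma, adjusted p = 0.0224). It was thus not lower under the label of a repressor of Gli-activated genes. Whether Gli factors act on PTCH1 in these cells was not tested. Like GLI3, PTCH1 therefore did not serve as a check of the Gli3T label. All 5 pathway genes were selected for a difference too. The number called among the 5 was 0 in limma without any 1 of the Gli3T arrays, 2 without empty vector replicate 3 and 5 without empty vector replicate 1.

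Of 24 marker genes for epithelial, fibroblast, endothelial and leukocyte cells, only the epithelial keratin gene KRT80 was analysed, and it was higher under the Gli3T label, with a log2 difference of 0.75 ± 0.11 (SE; limma, adjusted p = 0.0287). The labelled cell type was therefore not checked against its defining markers. KRT80 came from the table selected for a difference between these groups, so its call was favoured by that selection. In these bulk samples a change in the share of cells and a change in RNA per cell cannot be told apart.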

How the data were processed

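Sample titles gave the groups. The deposited values are log2 expression values, and the submitters' processing notes name oligo, RMA and limma but no version. The array's annotation and its build are not given in the sources used here. The matrix has no symbols, so genes were named through the authors' table of 405 selected genes, of which 398 were in the matrix. Of the 405 symbols, 363 were current in the RefSeq gene table, 40 were found as synonyms and 2 were not resolved.

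The alignment of that table was checked by setting each cell against the matrix at a tolerance of 0.01 log2. In the 263 ordinary rows found in the matrix, sample columns 1 to 5 went with the arrays they head, with median gaps of 0.0025 to 0.0095 log2. Column 1, headed by empty vector replicate 1, matched within the tolerance in 56.3% of these rows, and columns 2 to 5 in 93.9% to 98.5%. Column 6 matched its array in at most 4 rows. In the 135 displaced rows found in the matrix, whose first sample cell was at most 1, columns 2 to 6 held arrays 1 to 5, with median gaps of 0.0024 to 0.0094 log2. Empty vector replicate 1 matched in 55.6% of the displaced rows, and arrays 2 to 5 in 73.3% to 91.9%. The first cell of the displaced rows, from 0.00427 to 0.0481, followed limma's adjusted p of the same probe sets (Spearman 0.997 across genes). All values were therefore taken from the matrix. Of the 6 genes described, only TGFB2 stood in a displaced row. All 135 displaced rows belonged to genes that were lower under the Gli3T label. There was 1 unnamed column, which was not used.

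limma 3.58.1 (R 4.3.3; lmFit, eBayes) was run on all probe sets, with Benjamini-Hochberg adjustment over all 32321. The code was also run on simulated data with equal spread in both groups and no array standing apart. These arrays differ from that, so the simulation does not show how far the calls hold here. Standard errors of differences come from the SDs of the arrays. Genes were named as the 6 described, GLI3, up to 4 called genes per list and direction, and the 2 nearest patterns per gene. Outside that rule, SLC2A1, KRT80 and the genes of the closing observations were named after their values were seen. The genes, lists and tests were chosen with earlier results of these data known. Python 3.11.15, pandas 2.3.3 and matplotlib 3.10.9 were used. Depth does not apply to arrays, whose number limits the precision.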

Additional observations from a re-analysis of the deposited data

How the results depend on the processing

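The differences of the 6 ligand and receptor genes kept their direction in every setting tried, but limma's calls on them did not hold. It called 0 to 6 of them with 1 array left out and 4 with each array centred on its median (TGFBR2 and PDGFA lost). Calls over all probe sets fell with that centring too, to 359 higher and 200 lower, from 454 and 344 without it. Under the alternatives, 65 values, among them the 6 of the replicate block that could not move, moved by less than 1 SD of the arrays and 1 by more. That one was TGFB2 with array weights, at -0.49, chosen after empty vector replicate 1 was seen to stand apart (weight 0.133). The number of probe sets called by limma was 798, and it was 1292 with a mean trend, 7104 with array weights, 1446 at or above the median expression, 31 at an adjusted p of 0.01 and 0 to 2178 with 1 array left out. Of the 5 other pathway genes 4 were called, and 0 to 5 with 1 array left out. GLI3 differed by -1.40 to -1.25 with 1 array left out. The groups share replicate numbers, and the labels do not say whether these pair the samples. Deviations of same-numbered arrays correlated at -0.30, -0.14 and 0.04, and those of arrays with different numbers at -0.33 to 0.38. The 3 deviations of a group depend on one another, so these correlations cannot show whether the samples were paired. With the replicate number as a block, limma called 240 probe sets, 3 of the 5 pathway genes and 1 of the 6 ligand and receptor genes (TGFBR3), GLI3 differed by -1.34 (adjusted p = 0.023), and the differences of the 6 genes were the same by construction. Lower calls also outnumbered higher ones with array weights (3110 higher and 3994 lower) and with the block (51 higher and 189 lower). The causes of these changes were not tested. Signal over background was not known.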

Other observations

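Some genes of the table act next to these receptors. They were picked for that role after their values had been seen, and the table was selected for a difference, so their directions are no support for a change of the pathways. Near the TGF-beta receptors, FSTL3, a secreted inhibitor of activins, averaged 10.88 ± 0.059 in the arrays labelled Gli3T and 9.98 ± 0.14 in the empty-vector arrays (SD, n = 3 each), a log2 difference of 0.90 ± 0.086 (SE). CTDSP1 and CTDSP2, phosphatases that act on SMAD linkers among other substrates, differed by 0.68 ± 0.035 and 0.97 ± 0.14 log2 (SE). Near the PDGF and VEGF receptors, PIK3R1, the regulatory subunit that docks PI3-kinase to activated receptors, differed by 1.23 ± 0.22 (SE), with empty-vector arrays at 9.30, 9.89 and 10.02, replicate 1 lowest. RASA1, a GTPase activator of Ras that binds PDGF receptors, differed by 0.66 ± 0.088 and the Ras exchange factor gene SOS2 by 0.89 ± 0.18 (SE). PTPRJ, a receptor tyrosine phosphatase, differed by 0.72 ± 0.024, whereas FRS2, an adaptor of FGF receptors, was lower at -0.60 ± 0.086 (SE). Of genes tied to hypoxia signalling, as VEGFA is, the prolyl hydroxylase gene EGLN1 differed by 0.65 ± 0.092 and C7orf68, now HILPDA, by 0.93 ± 0.035 (SE). Of these genes only FRS2 was lower. The table itself leans the same way, with 262 higher genes found in the matrix and 136 lower ones, so a mostly higher pick is unremarkable. EGR1 and FOS, which growth factor receptors induce, were lower, with log2 differences of -0.88 and -0.77. They were the only 2 analysed of 14 listed receptor tyrosine kinase output genes and came from the same selected table. Growth factor signalling was not tested.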
